A study of Saccharomyces cerevisiae with 17 samples.

Results

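A FLAG-tagged fragment of the nuclear envelope protein Brr6 that lacks its putative zinc finger (Brr6ΔC4N) was compared with an empty vector by chromatin immunoprecipitation and sequencing (ChIP-seq) in budding yeast. All 22 peaks of the deposited table were used, out of 22 in the series, and none was left out by its measured value. The regions are themselves called peaks, so the deposited list was already selected by signal, in libraries that are not stated. At each peak a precipitate's mean signal was divided by the mean signal of its construct's total extract, the unprecipitated input DNA. A ratio of 1 means equal deposited signal in both. It is no calibrated baseline for enrichment, because the library sizes behind the deposited scaling are not stated. The vector precipitates had median ratios of 0.702 (a) and 0.705 (b) over the 22 peaks. The series holds 17 libraries, of which 8 are RNA and 9 are ChIP. The constructs compared have 6 of the ChIP libraries, namely 2 FLAG precipitates (a and b) and 1 total extract each. The other 3, from a related fragment, Brr6N, entered the fit too and share in its estimate of the spread. All ChIP cells were strain W303, labelled MATα and [phi+]. Their auxotrophic alleles are ade2-1, ura3-1, his3-11,15, trp1-1 and the double mutation of leu2-3 with leu2-112, beside the canavanine resistance allele can1-100. They carried the LEU2 plasmid pJL602 with a GAL promoter, either empty or driving an NLS-bearing brr6ΔC4N fragment, and a related set of 3 libraries carried the same plasmid with BRR6N, the fragment that keeps the finger. Both fragments lack a membrane anchor, and every strain is labelled as wild type apart from its plasmid, so that it kept its own chromosomal BRR6. Cells were grown in raffinose (2%) plus sucrose (0.04%), moved to galactose (2%) plus sucrose (0.04%) overnight, and crosslinked for 15 min in 1% formaldehyde. The labels count biological replicates upward from 2 to 10 over the 9 ChIP libraries. Whether a and b came from separate cultures is therefore uncertain, and the spread between them may be technical.

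Brr6 is an essential protein of the yeast nuclear envelope that works with Brl1 and Apq12 in the assembly of nuclear pores and in membrane balance. The series asks whether Brr6 touches genes at the nuclear periphery, with the empty vector as the measure of DNA that sticks to FLAG beads and the fingerless fragment as the measure of what needs the finger. Of the 22 peaks, 8 lie at genes that mark one mating type. In yeast, cells of mating type a express the a-specific genes, such as STE2, MFA1, MFA2, STE6 and BAR1, while α cells repress them through the α2 repressor. HMR is a silent locus that stores a copy of the mating-type a genes.

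The total extracts of the fragment strains differed most from that of the vector strain at a pair of peaks, and this was read before any ratio. At the HMRA1 peak (chr3:293560-294280, R64), which covers most of the silent copy of the a1 gene, the total extract held a mean signal of 102 in the vector strain, 213 with Brr6ΔC4N and 238 with Brr6N. The signal there was thus 2.09 times as high with Brr6ΔC4N as with the vector, and 2.33 times as high with Brr6N. A cell of mating type a carries this sequence at MAT as well as at HMR, whereas the labels give MATα for all 3 strains. At the BRR6 peak (chr7:36720-37620), which spans the whole gene carried in part by the fragment plasmids, the total extract held 138 with the vector, 227 with Brr6ΔC4N and 289 with Brr6N. Over the other 20 peaks the Brr6ΔC4N total extract stood at 0.779 to 1.15 times the vector total, with a median of 0.937. The Brr6N total extract stood at 0.790 to 1.66 times the vector total over the same 20, with a median of 1.01. Its highest value was at YML045W-A (177 against 107). The vector strain and the fragment strains therefore stood apart at HMRA1 in their input DNA. The part of this difference in the ratios was not tested.

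**Figure D1:**
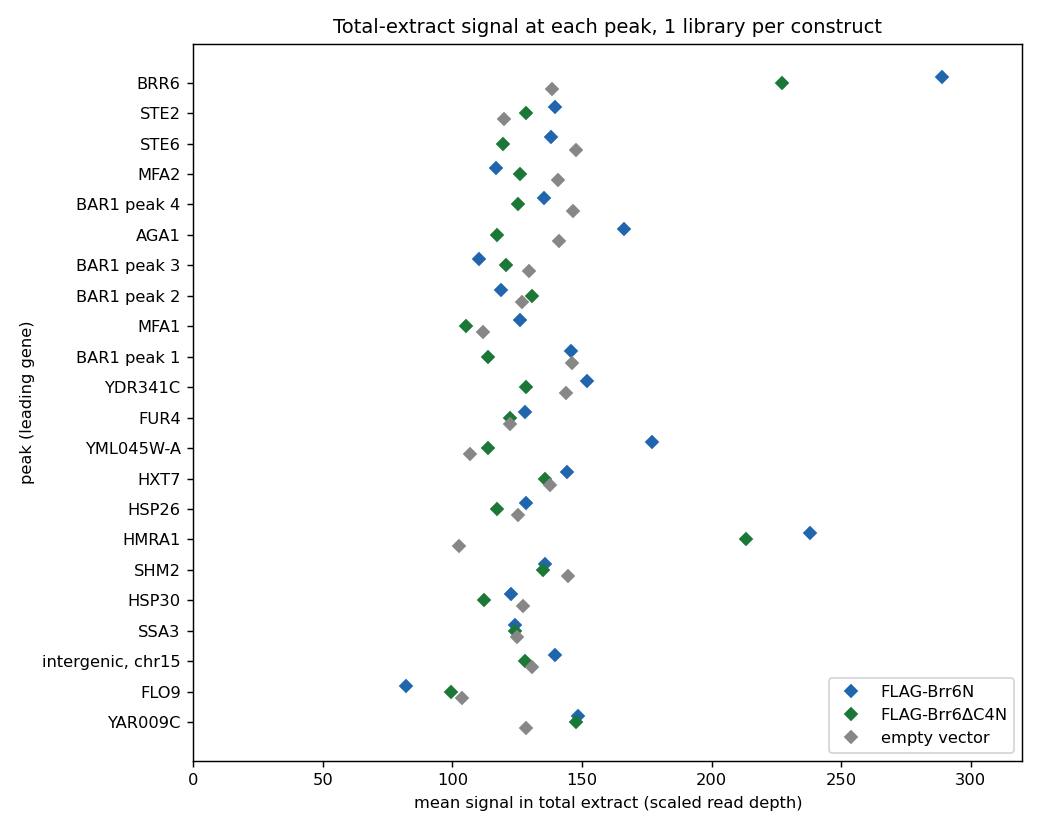
Mean signal (scaled read depth, x axis) in the total extract of each construct at each of the 22 peaks (y axis), with 1 library per construct. At HMRA1 the vector extract stands at 102 and the Brr6ΔC4N extract at 213, and at BRR6 they stand at 138 and 227.

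The maximum signals of each library were whole multiples of 1 factor, which ran from 0.863 to 1.46 with Brr6ΔC4N precipitate b at 1, so the deposited values are read depths scaled to a common library. In the scaled-back depths, the median over peaks of the mean depth was 144 and 135 in the Brr6ΔC4N precipitates, 84.9 and 85.1 in the vector precipitates, and 115 and 112 in their total extracts. Neither the library sizes behind these factors, nor the peak caller, nor the libraries on which peaks were called are stated by the labels or the table. A peak called in a fragment library had to stand high there, so a count of peaks above the vector depends on which libraries the list was drawn from.

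Brr6ΔC4N lay above the vector at BRR6, at every peak of an a-specific gene and at AGA1, and at no other peak past the test. Limma was fitted to log2 ratios of all 6 precipitates, 2 each of Brr6ΔC4N, vector and Brr6N, with Benjamini-Hochberg adjustment over the 22 peaks. In this fit 10 peaks were higher with Brr6ΔC4N (45.5% of the 22) and 0 were lower. At an unadjusted p below 0.05 there were 11 peaks, all 11 of them higher. With each precipitate centred on its own median over the peaks, which shifts all differences by 0.58 on the log2 scale, the split became 5 higher and 11 lower. The calls kept then are BRR6, STE2, STE6, MFA2 and the fourth BAR1 peak. Both Brr6ΔC4N ratios exceeded both vector ratios at 12 peaks (54.5%), and both lay below at 4 (18.2%). The 8 peaks at 5 a-specific genes had a median log2 difference of 0.93 (from 0.48 to 1.95), the 12 peaks outside BRR6, AGA1 and the a-specific genes had 0.03 (from -0.20 to 0.37), and all 22 had 0.32. Of those 8 peaks 8 were called, 4 of them in BAR1, and of those 12 peaks 0. BRR6 and AGA1, which are on other lists and were called too, were set apart from the 12. The 0 called there, and in part the low median, follow from how that group was drawn and are no contrast between gene groups. After centring, 4 of the 8 were higher and 11 of the 12 were lower, with YDR341C the one that did not pass. The Brr6ΔC4N strain, which stood above the vector at the a-specific genes, also held 2.09 times the vector's HMRA1 signal in its total extract, and the part of that in this group's result was not tested. Each construct has 1 total extract, so its error enters both ratios alike and is not in these p-values. An exact permutation test of 2 against 2 cannot go below 0.333 (two-sided).

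**Figure D2:**
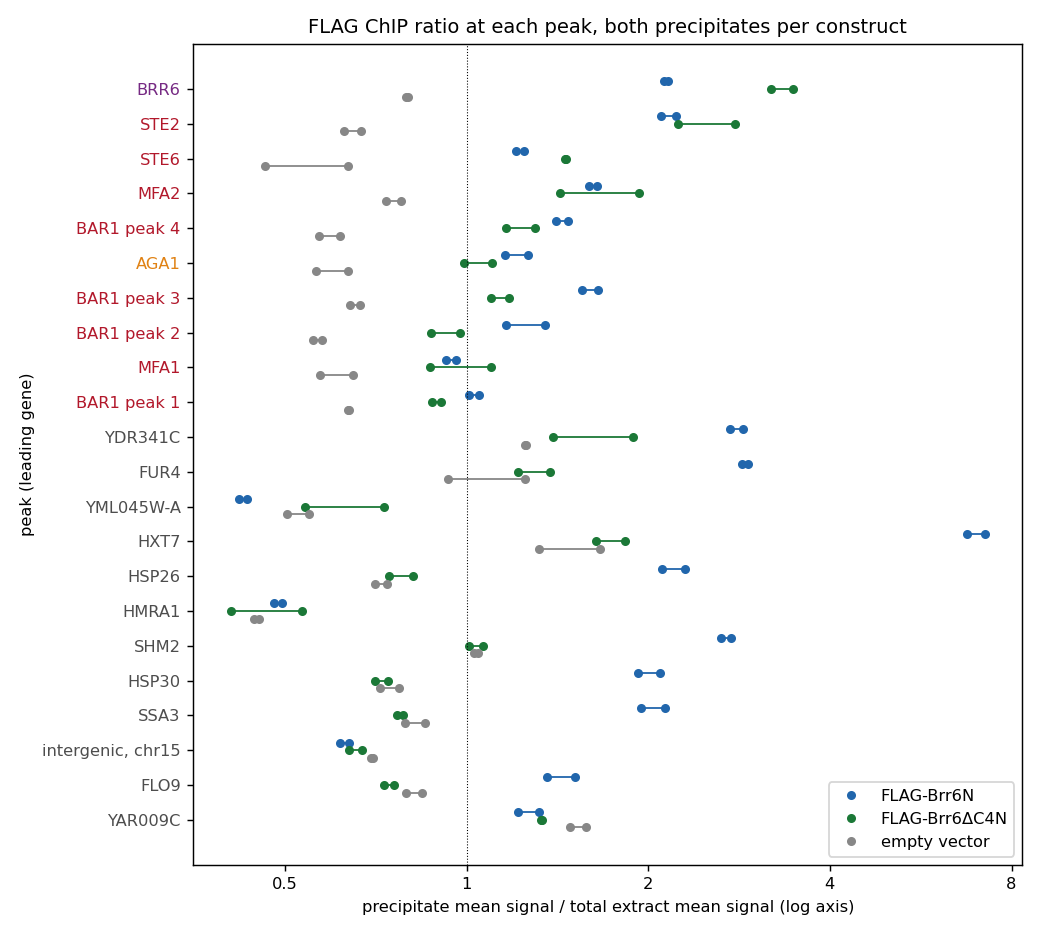
Ratio of precipitate to total-extract mean signal (x axis, log scale) at each peak (y axis, ordered by the difference between Brr6ΔC4N and vector), with both precipitates of each construct as points joined by a line. At the 10 uppermost peaks the green Brr6ΔC4N points lie to the right of the grey vector points without overlap.

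BRR6 gave the largest difference with both precipitates in, while without Brr6ΔC4N precipitate a STE2 stood above it (2.11 against 2.00 on the log2 scale). The ratio was 3.47 and 3.19 in the Brr6ΔC4N precipitates against 0.793 and 0.798 in the vector precipitates. The log2 difference was 2.06 ± 0.09 (SE, n = 2 and 2; adjusted p = 1.4e-07, limma), a fold of 4.18 with a 95% interval of 3.64 to 4.81. Before division by the extracts the mean signal was 788 and 726 against 109.8 and 110.5, a fold of 6.87, and the total extract of the fragment strain was 1.64 times as high as that of the vector strain. The fragment's own coding sequence sits on the plasmid, and reads from the plasmid and from the chromosomal gene cannot be told apart in this table. The peak takes in all of BRR6 (36933 to 37526), the last bases of the phosphodiesterase gene PDE1 and the end of RAI1, whose product is a partner of the exonuclease Rat1. The maximum signal in the peak reached 2137 and 1908 with Brr6ΔC4N and stayed at 196 and 184 with the vector.

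The pheromone receptor and the pheromone exporter of a cells came next. STE2, the α-factor receptor of a cells, had ratios of 2.24 and 2.78 with Brr6ΔC4N against 0.626 and 0.667 with the vector, which do not overlap. The log2 difference was 1.95 ± 0.12 (n = 2 and 2; adjusted p = 1.2e-06, limma), and it was 2.04 without division by the extracts. The peak (chr6:82400-84200) covers the whole STE2 gene (82580 to 83875) and the end of BST1. STE6, the transporter that exports a-factor, had ratios of 1.45 and 1.46 with Brr6ΔC4N against 0.462 and 0.635 with the vector. These groups do not overlap either, and the vector pair is further apart than the Brr6ΔC4N pair. Its log2 difference was 1.43 ± 0.14 (adjusted p = 2.9e-05, limma), from a peak of 60 bases inside the gene (chr11:44880-44940). Undivided, it was 1.12, and the vector extract was the higher one at this peak (148 against 119).

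Both genes for the a-factor pheromone precursor held a peak. MFA2 (peak chr14:352320-352440, from upstream into the start of the gene) had ratios of 1.43 and 1.93 with Brr6ΔC4N and 0.777 and 0.736 with the vector. MFA1 (chr4:1385080-1385300, spanning the gene) had 0.869 and 1.10 with Brr6ΔC4N and 0.571 and 0.648 with the vector. In both genes the groups stand apart, though at MFA1 precipitate a of Brr6ΔC4N stayed below its own total extract in deposited signal. The log2 differences were 1.14 ± 0.14 at MFA2 (adjusted p = 9.6e-05) and 0.68 ± 0.13 at MFA1 (adjusted p = 0.00117), both from limma. Centred on the medians, MFA1 lost its call (0.11, adjusted p = 0.379).

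BAR1, the secreted protease that degrades α-factor, held 4 separate peaks, which share a gene and are not independent of each other. From the 5′ to the 3′ end of the gene (322342 to 324105 on chromosome 9) their centres lay 178, 548, 958 and 1398 bases from the gene start. The Brr6ΔC4N ratios were 0.906 and 0.875 at the first peak, 0.874 and 0.976 at the next, 1.10 and 1.18 at peak 3, and 1.16 and 1.30 at the fourth. Those of the vector were 0.637 and 0.639, then 0.577 and 0.556, then 0.666 and 0.640, and last 0.569 and 0.617. At each of the 4 peaks the groups do not overlap, but at the first pair of peaks Brr6ΔC4N stayed below its own total extract in deposited signal. In the same order the log2 differences were 0.48, 0.71, 0.80 and 1.05 (SE 0.08 to 0.11), with limma adjusted p of 9.5e-04, 3.7e-04, 6.8e-05 and 2.4e-05. The 95% interval of the first, 0.29 to 0.67, ends below that of the fourth, 0.83 to 1.27, while neighbouring intervals overlap. Undivided, the differences in gene order were 0.12, 0.75, 0.70 and 0.83, and the first peak, which is 40 bases wide, lost its call (adjusted p = 0.229, limma). With maximum signal they were 0.52, 0.54, 0.82 and 0.76, so the order along the gene depends on the measure. Centred on the medians, the differences in gene order were -0.095, 0.13, 0.22 and 0.48, of which the last passed (adjusted p = 5.5e-04, limma).

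AGA1, the anchor subunit of the a-agglutinin of mating cells, is on the pheromone response list and is induced by pheromone in both mating types. Its ratios were 0.992 and 1.10 with Brr6ΔC4N against 0.563 and 0.636 with the vector, which do not overlap. The log2 difference was 0.80 ± 0.11 (adjusted p = 1.5e-04, limma), and it was 0.54 without division and 0.23 after centring (adjusted p = 0.0533). The peak (chr14:704520-704640) lies inside the gene. Of the 7 a-specific genes on the list, 5 held a peak, and AGA2 and ASG7 did not. None of the α-specific genes and none of the listed GAL genes did, nor LEU2. All plasmids, the empty vector included, carry LEU2 and a GAL promoter.

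**Figure D3:**
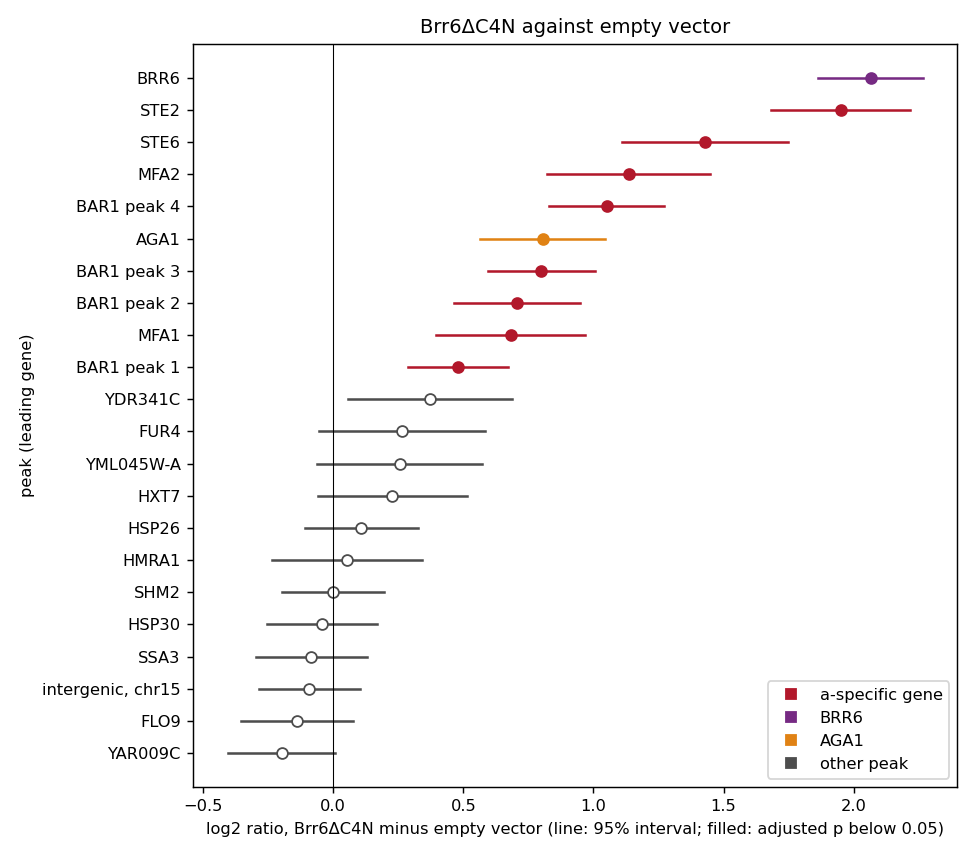
Log2 ratio of Brr6ΔC4N minus that of the empty vector (x axis) at each peak (y axis), with 95% intervals from limma as lines and filled points where the adjusted p is below 0.05. The 10 filled points are BRR6, AGA1 and the 8 peaks at a-specific genes, and run from 0.48 to 2.06. After centring on the medians, 5 of them pass and the first BAR1 peak turns to -0.095.

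**Figure D4:**
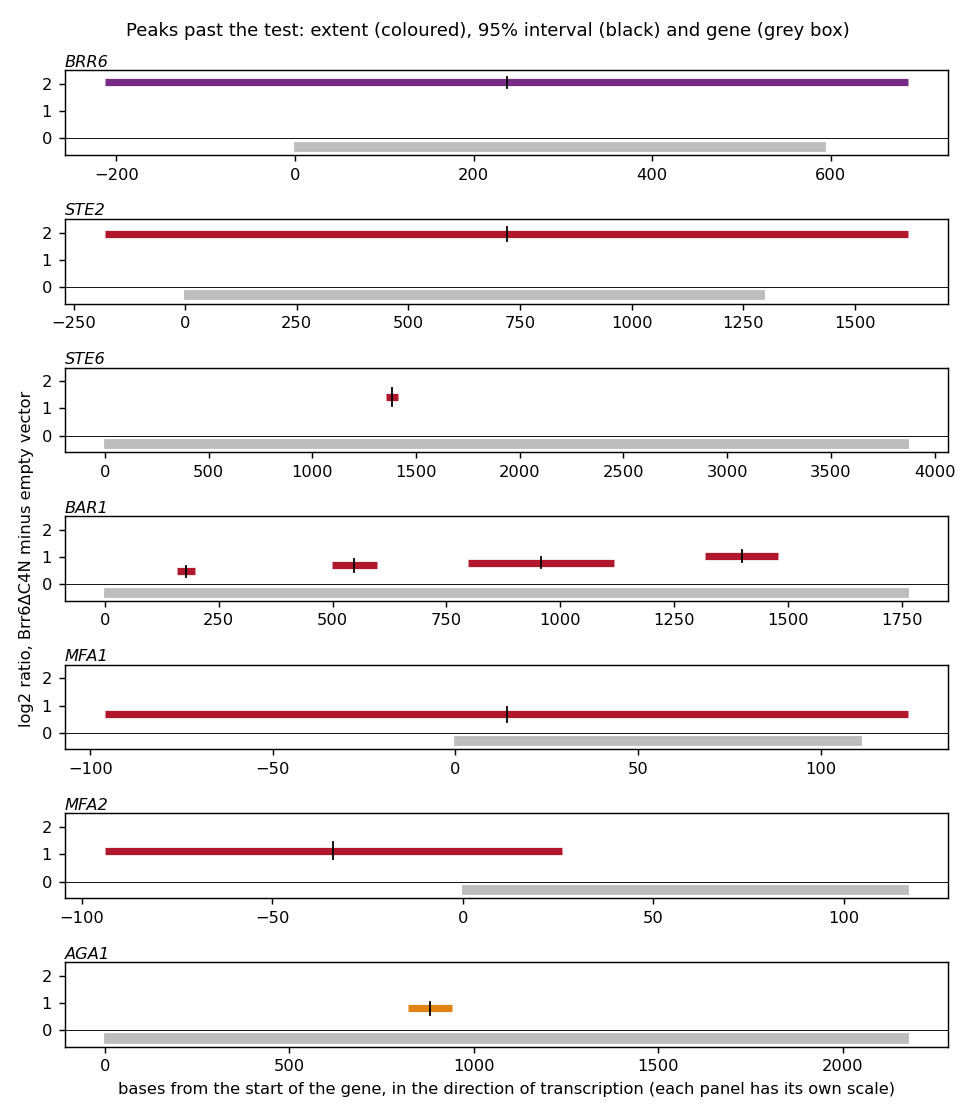
Position of the 10 peaks past the test along their genes (x axis, bases from the gene start in the direction of transcription) against the log2 difference between Brr6ΔC4N and vector (y axis). Coloured bars give the extent of each peak, black lines the 95% interval and grey boxes the gene. The BAR1 values are 0.48, 0.71, 0.80 and 1.05 in gene order with these ratios, and 0.12, 0.75, 0.70 and 0.83 without division by the extracts. After centring they run from -0.095 to 0.48.

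At the HMRA1 peak the ratios were 0.407 and 0.532 with Brr6ΔC4N and 0.445 and 0.452 with the vector, so the vector values lie between those of the fragment. The log2 difference was 0.05 (95% interval -0.24 to 0.34; adjusted p = 0.717, limma). A single precipitate decided its sign and call: it was 0.25 without Brr6ΔC4N precipitate a (adjusted p = 0.0294) and -0.14 without b (adjusted p = 0.181). After centring it passed as lower (-0.52, adjusted p = 5.5e-04). The undivided signal was higher with Brr6ΔC4N (86.8 and 114 against 45.5 and 46.3), by 1.11 on the log2 scale (adjusted p = 1.1e-04, limma). The extracts themselves differed by 1.06 on the same scale.

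The peaks at sugar and nucleobase transporters and at the tRNA synthetase gene beside HXT7 did not pass with all precipitates and mean signal, but each passed under some other setting. HXT7 encodes a high-affinity hexose transporter, and its peak (chr4:1155680-1158740, 3060 bases) runs from the start of the gene far upstream. Reads from its near-identical neighbour HXT6 may be shared with it, so its values are uncertain. The ratios were 1.64 and 1.83 with Brr6ΔC4N and 1.32 and 1.66 with the vector, so that the groups overlap. The log2 difference was 0.23 (95% interval -0.06 to 0.51; adjusted p = 0.156, limma). This was the peak at which the vector precipitates reached their highest maximum signal, 912 and 772, beside 1148 and 1019 with Brr6ΔC4N. The HXT7 difference passed with maximum signal (0.34, adjusted p = 0.0278) and without vector precipitate b (0.39, adjusted p = 0.022), was 0.06 without vector precipitate a, and after centring passed as lower (-0.35, adjusted p = 0.0178). The neighbouring peak at YDR341C, a cytosolic arginyl-tRNA synthetase gene (chr4:1153300-1154120), had 1.39 and 1.89 against 1.25 and 1.25. There the groups do not overlap, and the log2 difference of 0.37 just missed the threshold (adjusted p = 0.0509, limma). On the log2 scale the Brr6ΔC4N pair is further apart at this peak than at any other of the 22. Without Brr6ΔC4N precipitate a the difference was 0.59 (adjusted p = 5.9e-04), and it passed as well without vector precipitate a (adjusted p = 0.0364) or b (adjusted p = 0.0287) and with maximum signal (0.56, adjusted p = 0.00292). Without Brr6ΔC4N precipitate b it was 0.15, and after centring -0.20, neither past the test. FUR4, the uracil permease gene (chr2:282280-283780), had 1.22 and 1.37 against 0.931 and 1.25, which overlap, with a log2 difference of 0.26 (adjusted p = 0.156, limma). This rested on the vector precipitates: it was 0.47 without vector b (adjusted p = 0.00583) and 0.05 without vector a, and after centring -0.31 (adjusted p = 0.0367).

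The peaks at heat shock genes and at SHM2 did not pass the test, except as lower after centring. HSP26, a small heat shock protein gene (chr2:381820-383380), had ratios of 0.813 and 0.743 with Brr6ΔC4N against 0.704 and 0.738, which lie just apart. SSA3, an HSP70 chaperone gene (chr2:84140-86000), had 0.765 and 0.785 against 0.790 and 0.853, with the vector just above. At HSP30, a plasma membrane stress protein gene (chr3:154820-156900), the ratios were 0.741 and 0.705 against 0.773 and 0.717. At SHM2, cytosolic serine hydroxymethyltransferase (chr12:257460-258920), they were 1.01 and 1.06 against 1.03 and 1.04. At HSP30 and SHM2 the groups overlap. The log2 differences were 0.11 at HSP26, -0.08 at SSA3, -0.04 at HSP30 and -0.0013 at SHM2. Their 95% intervals together span -0.30 to 0.33. Centred on the medians, all 4 passed as lower, HSP26 at -0.47 (adjusted p = 0.0021), SSA3 at -0.66 (8.0e-05), HSP30 at -0.62 (1.8e-04) and SHM2 at -0.58 (9.9e-05). With maximum signal SHM2 passed as lower too (-0.28, adjusted p = 0.0449).

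The lowest differences were found at a Ty1 retrotransposon gene, a flocculin gene and an intergenic site, while another Ty1 peak, at YML045W-A, had a positive difference. YAR009C, a Ty1 retrotransposon gene (chr1:163800-163920), had 1.33 and 1.33 with Brr6ΔC4N against 1.48 and 1.57, the only peak of the 22 with Brr6ΔC4N ratios over 1 that lay below both vector ratios. FLO9, a flocculin gene with close relatives (chr1:25420-25500), had 0.728 and 0.757 against 0.842 and 0.793. The peak on chromosome 15 (908440 to 908580), for which the deposited table lists no gene, had 0.671 and 0.637 against 0.700 and 0.693. At all 3 the groups stand apart with the vector above, but the log2 differences of -0.20, -0.14 and -0.09 did not pass (adjusted p from 0.103 to 0.385, limma). After centring they passed as lower, at -0.77 for YAR009C and -0.71 for FLO9 (adjusted p = 2.2e-05 for both) and -0.67 for the intergenic peak (adjusted p = 7.3e-05). The remaining peak, next to the Ty1 gene YML045W-A (chr13:184240-184380), had 0.539 and 0.728 against 0.548 and 0.503, which overlap (log2 difference 0.26, adjusted p = 0.156, limma). It rested on 1 precipitate, with 0.47 without Brr6ΔC4N a (adjusted p = 0.0027) and 0.039 without b, and after centring it was -0.32 (adjusted p = 0.0238). Signal at Ty1 and FLO9 is uncertain, since reads from near-identical copies may be shared between them.

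Brr6N passed above Brr6ΔC4N at 8 and below it at 1 of the 12 peaks outside BRR6, AGA1 and the a-specific genes. These 12 are the peaks at which Brr6ΔC4N did not pass against the vector, and both contrasts use the same Brr6ΔC4N libraries. A low Brr6ΔC4N value thus counts towards both, so the 8 of 12 is no separate finding about these peaks. At HXT7 the Brr6N ratios were 6.76 and 7.22, and the log2 difference of Brr6N minus Brr6ΔC4N was 2.01 ± 0.12 (adjusted p = 9.2e-07, limma). With maximum signal the HXT7 difference was 0.57 (adjusted p = 0.00113), below those of SHM2 (1.29), HSP30 (1.24) and HSP26 (1.23), so that its rank depends on the use of mean signal. In this contrast Brr6N was higher at 10 of 22 peaks (45.5%) and lower at 2 (9.09%), or at 7 and 12 once each precipitate was centred on its median. Both Brr6N ratios lay above both Brr6ΔC4N ratios at 13 peaks (59.1%) and below them at 5 (22.7%). Against the vector libraries, which that comparison shares with Brr6ΔC4N, Brr6N was higher at 18 peaks (81.8%) and lower at 1 (4.55%), or 7 and 7 after centring, and its ratios stood apart above the vector at 19 (86.4%) and below it at 3 (13.6%). The 10 peaks higher with Brr6N than with Brr6ΔC4N are HXT7, HSP26, HSP30, SSA3, SHM2, FUR4, FLO9, YDR341C and the BAR1 peaks 2 and 3. For the first 8 of these the log2 difference ran from 0.79 to 2.01, against 0.44 and 0.49 at BAR1.

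At the 8 peaks of a-specific genes Brr6N passed above Brr6ΔC4N at 2, both in BAR1, and below it at 0, where 10 of all 22 peaks (45.5%) passed above and 2 (9.09%) below. Centred on the medians, 0 of the 8 passed above and 6 below, with STE2 at -0.75 (adjusted p = 9.0e-06), STE6 at -0.79, MFA1 at -0.59, MFA2 at -0.58 and BAR1 peaks 1 and 4 at -0.33 and -0.31. Without Brr6ΔC4N precipitate a, 3 passed above and 2 below, the latter being STE2 (-0.37) and MFA2 (-0.25). Undivided, or divided by the mean of the 3 extracts, 4 of the 8 passed above, all in BAR1, and 0 below. Of all 22 peaks, 13 passed above and 1 below in each of these settings. With a trend in the prior variance, 4 of the 8 passed above and 0 below, beside 12 and 2 of all 22. In the main fit, the median log2 difference of Brr6N minus Brr6ΔC4N over these 8 peaks was 0.09, with a range of -0.25 to 0.49. At STE2, where Brr6N had 2.22 and 2.10, it was -0.21 (95% interval -0.48 to 0.06; adjusted p = 0.143, limma). At STE6 it was -0.25 (-0.57 to 0.07), at MFA1 -0.05 (-0.34 to 0.23) and at MFA2 -0.04 (-0.35 to 0.28). All 4 intervals include 0 and reach further below it than above it. The 4 BAR1 peaks leaned the other way. In gene order they stood at 0.21 (0.017 to 0.40), 0.44 (0.20 to 0.68), 0.49 (0.29 to 0.70) and 0.23 (0.007 to 0.45). These BAR1 intervals lie above 0, although peaks 1 and 4 missed the adjusted threshold (adjusted p = 0.0615 and 0.0700, limma). BRR6 was lower with Brr6N (2.12 and 2.15) than with Brr6ΔC4N, by -0.64 ± 0.09 on the log2 scale (adjusted p = 1.9e-04, limma). Undivided, the BRR6 difference was -0.29 (adjusted p = 0.0162), beside total extracts of 289 with Brr6N and 227 with Brr6ΔC4N. The peak at YML045W-A was also lower with Brr6N (-0.56, adjusted p = 0.00637, limma), at a place where the Brr6N total extract held 177 against 114 with Brr6ΔC4N. Undivided, the YML045W-A difference was 0.079.

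**Figure D5:**
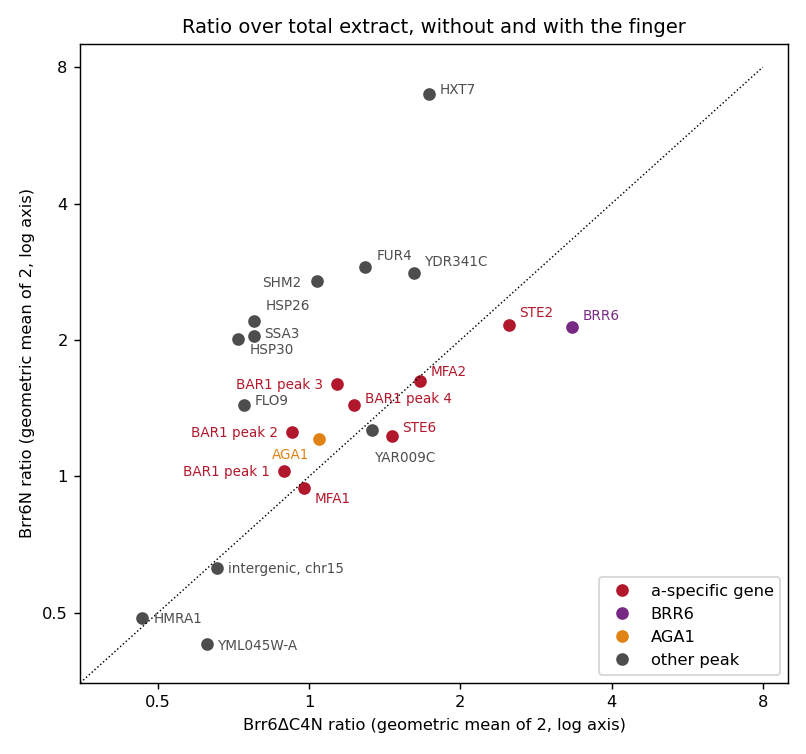
Ratio over total extract with Brr6N (y axis) against Brr6ΔC4N (x axis), each the geometric mean of 2 precipitates on log scales, with equality as a dotted line. With mean signal HXT7 stands furthest above the line (6.99 against 1.73) and BRR6 furthest below it (2.14 against 3.33), with the peaks of a-specific genes on both sides of it.

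The RNA of these genes was read in the wild-type galactose libraries of the series, which come from another strain, YPH399, also labelled MATα, after 2 h in galactose. RNA levels are counts as CPM divided by the length of the gene in kilobases. The a-specific genes with a peak stood at 6.51 and 5.73 for STE2, 4.27 and 5.84 for MFA1, 2.03 and 0.426 for MFA2, 2.07 and 1.47 for BAR1 and 20.6 and 17.2 for STE6 in replicates A and B. The MFA1 levels rest on 10 and 13 counts and those of MFA2 on 5 and 1, so both lie near the floor. All 5 genes lie at or below percentile 28.0 of the 5898 genes with a length, where the median gene has 47.2. AGA1 stood at percentile 3.53. The α-specific pheromone gene MF(ALPHA)1 stood at 237 and 171 (percentile 87.4) in the same libraries, and the α-cell receptor gene STE3 at 76.0 and 60.1. The other listed α-specific genes were lower, MF(ALPHA)2 at percentile 35.6 and SAG1 at percentile 13.1. Among the peaks not past the test, YDR341C (459 and 496) and HSP26 (244 and 330) stood at percentiles 95.5 and 91.7, and HXT7 was at percentile 35.7. The HXT7 level is uncertain, since reads shared with its near-identical neighbour HXT6 may have been left out or counted for either gene. No RNA of the W303 plasmid strains was analysed here, so these levels do not describe the cells used for ChIP.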

How the data were processed

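ChIP values come from 1 deposited table with mean and maximum signal per peak for 9 libraries. The authors head these columns RPKM and maximum RPM, per the file headers, but they are used here as deposited signal, since maxima are whole multiples of 1 factor per library (within 0.02). Reads were processed with cutadapt and Bowtie 1.1.2 on genome build R64, per the submitters' processing notes. The authors' fold columns were left out. Peak coordinates are printed as the table gives them. Raw RNA counts per gene were deposited by the authors as HTSeq output, per the submitters' processing notes, and are given here as CPM per kilobase, without the 5 HTSeq total lines (70.9% and 67.6% of all counts), for libraries of 21092421 and 20067326 counts.

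Ratios of mean signal, with no pseudocount (0 values were 0), were taken to log2 and fitted with limma 3.58.1 in R 4.3.3, with 3 constructs of 2 precipitates and 3 residual degrees of freedom per peak. The threshold was an adjusted p of 0.05 over 22 peaks. Alternatives covered the signal column, divisor, pseudocount of 0.5, scaling, samples, letters a and b as a block, peak subsets and each precipitate left out. Values were handled in pandas 2.3.3 with numpy 2.4.6 (Python 3.11.15), and drawn in matplotlib 3.10.9. A peak is named for the listed gene it overlaps most, or else the nearest listed one, with coordinates and names from the RefSeq gene table of R64, where all 34 listed transcripts matched. Every peak is described. The rule for full values took peaks past the threshold, the 5 largest and 5 smallest differences, those with the vector above, and the 5 highest Brr6N ratios. The peaks, lists and comparison were chosen with earlier results of these data known. Peak sequences were not used here.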

Additional observations from a re-analysis of the deposited data

How the results depend on the processing

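The 10 peaks higher with Brr6ΔC4N than with the vector all kept their call with the pseudocount, the maximum signal, the 4 compared precipitates alone, the prior-variance trend and each precipitate left out. The last of these gave 10 to 13 higher and 0 lower, 12 to 17 and 4 to 6 without overlap, and a median of 0.18 to 0.46. With maximum signal the fit gave 1 lower peak and a median of 0.43, and a median of 0.94 for Brr6N against the vector. With no division by the extracts, or division by the mean of all 3, Brr6ΔC4N kept 9 of 10 calls. Brr6N against Brr6ΔC4N then gave 1 lower and a median of 0.35, with YML045W-A at 0.079, and Brr6N against the vector 0 lower. Centring on the medians gave, for Brr6ΔC4N against the vector, 5 higher, 11 lower and 13 below without overlap. There HXT7 was at -0.35, HMRA1 at -0.52, FUR4 at -0.31, HSP26 at -0.47, YDR341C at -0.20, YML045W-A at -0.32 and the first BAR1 peak at -0.095. For Brr6N against Brr6ΔC4N it gave 12 lower, with HMRA1 at -0.48, BAR1 at -0.33, -0.10, -0.048 and -0.31 in gene order and AGA1 at -0.33, and for Brr6N against the vector 7 higher and 7 lower. Centring takes the median difference of all peaks out by construction. Restriction to the 11 peaks of higher total signal left 5 higher, with 6 above and 2 below without overlap, 4 higher and 1 lower for Brr6N against Brr6ΔC4N, and 8 higher for Brr6N against the vector. The 11 peaks of higher Brr6N ratio gave 5 higher, with 6 above and 1 below without overlap. The 5 are 4 of the main calls and YDR341C (adjusted p = 0.0497, limma). For these 11 peaks, Brr6N against Brr6ΔC4N gave 1 lower with a median of 1.16. Brr6N against the vector gave 11 higher and 0 lower there, with a median of 1.42. Fewer peaks enter these fits. Without the BRR6 peak Brr6N against Brr6ΔC4N gave 1 lower. In limma without BRR6, AGA1, HMRA1 and the a-specific peaks, an alternative chosen after seeing the data, Brr6ΔC4N was higher at 0 of 11 peaks (2 at an unadjusted p below 0.05), and Brr6N against Brr6ΔC4N gave 1 lower. With peaks of 1 gene merged, also added later, Brr6ΔC4N was higher at 7 of 19. The letters a and b are not said to pair precipitates, and their deviations correlated at -0.06 between Brr6ΔC4N and vector, -0.16 between Brr6ΔC4N and Brr6N, and 0.11 between vector and Brr6N. With the letters as a replicate block Brr6ΔC4N was higher at 11 peaks, adding YDR341C (adjusted p = 0.00563, limma), and Brr6N against the vector was lower at 2, as it was with only the 4 precipitates compared. With the letters crossed, a pairing added later, Brr6N against Brr6ΔC4N gave 13 higher and 2 lower. Leaving out each precipitate gave 9 to 12 higher, 2 to 4 lower and a median of 0.19 to 0.30 for Brr6N against Brr6ΔC4N, with 4 lower without Brr6ΔC4N precipitate a. It gave 18 higher, 0 to 1 lower and a median of 1.17 to 1.22 for Brr6N against the vector. Where an arm is left with 1 precipitate, that one is assumed to vary like the others. The cause of these changes was not tested. Since the extension of reads is not stated, depths give no counting interval, and with 1 total extract per construct an error in it cannot be told apart from a difference between constructs.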
